A study of Homo sapiens with 11 samples.

Results

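SCC9, spelled SSC9 in part of the labels, is an established human line of tongue carcinoma cells, and the drug interaction between cisplatin and nimesulide was measured in it on 8 of the series' 11 Affymetrix arrays. The 8 arrays were those of replicate letters A and B, because only these letters held all 4 treatments: combination, cisplatin, nimesulide and control. The combination received 0.5 µmol/L cisplatin with 100 µmol/L nimesulide, the single-agent cells received the same concentration of 1 drug, and the control received neither. Each treatment had 2 arrays, 1 per letter, and each array read biotin-labelled material made from total RNA. The duration of the treatment was not given in the sources used here, and all values come from 1 cell line. In bulk RNA, fewer cells with a transcript and less of it per cell cannot be told apart.

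Cisplatin is a platinum drug that crosslinks DNA, stalls replication and activates damage signalling and p53. Nimesulide is an anti-inflammatory drug that preferentially inhibits cyclooxygenase-2, the inducible enzyme that starts prostaglandin synthesis. When agents act independently on a transcript, their differences from control add on the log scale. The interaction was therefore computed within each letter as the combination minus cisplatin minus nimesulide plus control, in log2 units, where 1 unit is a doubling. A positive value means that the combination stood above the sum of the single-agent differences, and a negative value that it stood below that sum.

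The 250 bases before the start of 3 members are shown because IFI44L stood below the sum in both letters, ISG15 lay near it in both, and ASNS, from the ATF4 list, stood above it in both. The sequences are those of RefSeq on GRCh38.p14, at chr1:78620198-78620447 on the plus strand for IFI44L, chr1:1013247-1013496 on the plus strand for ISG15 and chr7:97872409-97872658 on the minus strand for ASNS. Capitals mark matches to the core of the interferon response element, written GAAA, any 2 bases and GAAA again, in IFI44L and ISG15, and to TGATGNAA, a core of the element that C/EBP and ATF factors bind, in ASNS.
IFI44L: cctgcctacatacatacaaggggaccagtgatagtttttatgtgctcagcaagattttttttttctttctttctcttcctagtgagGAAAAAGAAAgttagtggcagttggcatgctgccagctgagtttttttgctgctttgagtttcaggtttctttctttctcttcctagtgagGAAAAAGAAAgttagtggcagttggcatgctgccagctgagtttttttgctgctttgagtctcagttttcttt
ISG15: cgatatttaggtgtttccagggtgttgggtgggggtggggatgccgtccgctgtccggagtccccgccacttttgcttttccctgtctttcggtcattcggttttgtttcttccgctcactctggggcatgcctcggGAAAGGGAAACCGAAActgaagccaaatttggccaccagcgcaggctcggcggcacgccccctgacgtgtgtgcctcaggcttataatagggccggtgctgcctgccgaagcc
ASNS: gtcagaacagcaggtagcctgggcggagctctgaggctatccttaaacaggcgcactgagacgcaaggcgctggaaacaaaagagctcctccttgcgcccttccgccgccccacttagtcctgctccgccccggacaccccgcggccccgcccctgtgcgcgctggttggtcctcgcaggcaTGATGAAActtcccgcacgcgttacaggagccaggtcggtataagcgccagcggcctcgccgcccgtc
The matches began 164 and 73 bases before the start in IFI44L, 113 and 107 bases before it in ISG15, where they overlap, and 68 bases before it in ASNS. Both strands were searched. The interferon response core occurred in 3.02% of 35116 promoters of this length and in 18 of the 28 interferon list members that had a promoter sequence. TGATGNAA occurred in 3.14% of them and in 3 of 19 ATF4 list members. A match describes letters in the sequence and does not show that a factor bound there.

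Epithelial markers were abundant in all 8 arrays. The adhesion protein CDH1 lay between 10.47 and 10.77 log2 units, and the epithelial protein SFN between 10.32 and 10.57. Of 9 measured keratinocyte markers, 6 lay above the median level of all genes. The basal keratin KRT14, the plakophilin PKP1 and the desmosomal cadherin DSG3 did not, at means of 5.20, 4.19 and 5.59. Above that median lay 1 of 10 fibroblast markers, 1 of 10 leukocyte markers and 0 of 8 endothelial markers.

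The arrays were alike. Across probe sets, log2 values of the 2 arrays of a treatment correlated at 0.996 to 0.997 (4 pairs). Those of arrays with unlike treatments did so at 0.995 to 0.998 (24 pairs). Among 7 contrasts that each set 4 arrays against the other 4, the difference between the letters had the largest standard deviation over genes, at 0.110 log2 units. Nimesulide followed at 0.0918, the letter by nimesulide contrast at 0.0817 and cisplatin at 0.0812. The interaction of the drugs stood at 0.0772, and the letter by cisplatin and 3-way contrasts at 0.0729 and 0.0706. The interaction was thus spread over genes about as widely as the contrasts that only describe how the letters disagreed.

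**Figure D1:**
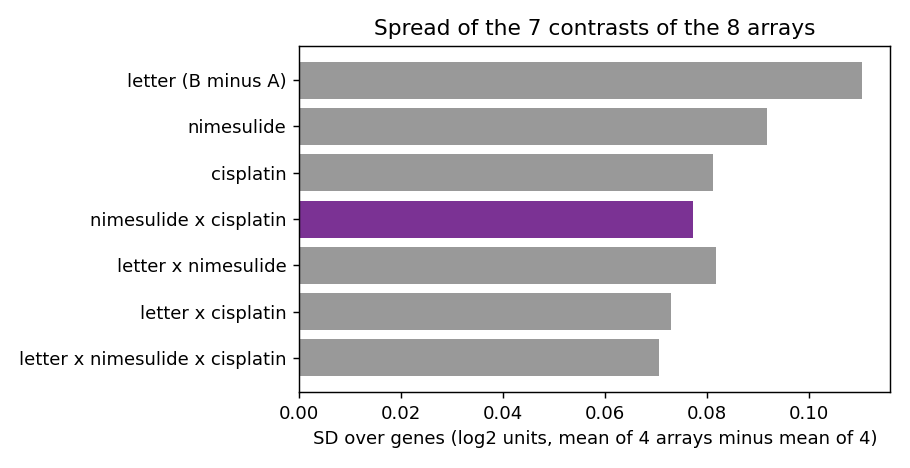
Standard deviation over 8549 genes of the 7 contrasts among the 8 arrays, each the mean of 4 arrays minus the mean of the other 4, in log2 units. The interaction of nimesulide and cisplatin (purple) stood at 0.0772, between the letter by nimesulide contrast at 0.0817 and the letter by cisplatin contrast at 0.0729.

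No probe set passed the test of the interaction. In limma, with Benjamini-Hochberg adjustment over 16383 probe sets, 0 (0%) were called at an adjusted p under 0.05, and the lowest adjusted p was 0.981. Unadjusted p-values under 0.05 were found for 651 probe sets, or 3.97%. The labels do not state that arrays came from separate cultures, so these p-values reflect only how far the samples varied, which may be technical. The median standard error of the mean interaction was 0.14 log2 units and the 95% interval reached a median of 0.31 to either side of it. For 8483 of 8549 genes (99.2%) that interval, taken gene by gene, lay within -1 and 1. Mean interactions ranged from -0.69 for the chemokine CCL5 to 0.79. None of the values below passed the test, and all are descriptions of these 8 arrays.

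The letters share no array, so each gives its own estimate. Over the 8549 genes, each read by its highest probe set, the interaction in letter A and that in letter B correlated at r = 0.0907 (rho = 0.0950). Genes within an array share its labelling and hybridisation, so this describes 2 sets of 4 arrays. The standard deviation over genes was 0.187 in letter A and 0.229 in letter B. Positive in both letters were 2272 genes (26.6%), negative in both 2298 (26.9%), and of opposite sign 3973 (46.5%). Agreement was higher among abundant transcripts. With genes split into 4 groups by level, the correlation was 0.0845, 0.0636, 0.145 and 0.194 in the lowest to the highest group.

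Large values in 1 letter were mostly not matched in the other. In letter A 114 genes lay at least 0.5 from 0. Their median size there was 0.56, while in letter B their median was 0.04 along the same sign, and 64 of the 114 (56.1%) had that sign. In letter B 313 genes lay that far from 0, with a median size of 0.58, against 0.03 along the same sign in letter A. Of these 313, 177 (56.5%) had the same sign in letter A. The 3 genes past 1 in a letter, singled out after their values were seen, had almost none of it in the other. AXL, a receptor tyrosine kinase, had -1.10 in letter A and -0.07 in letter B. GOLGA8A, a Golgi protein of a family of near-identical copies, had -0.14 and 1.71, and the integrin subunit ITGB8 had 0.02 and 1.10.

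**Figure D2:**
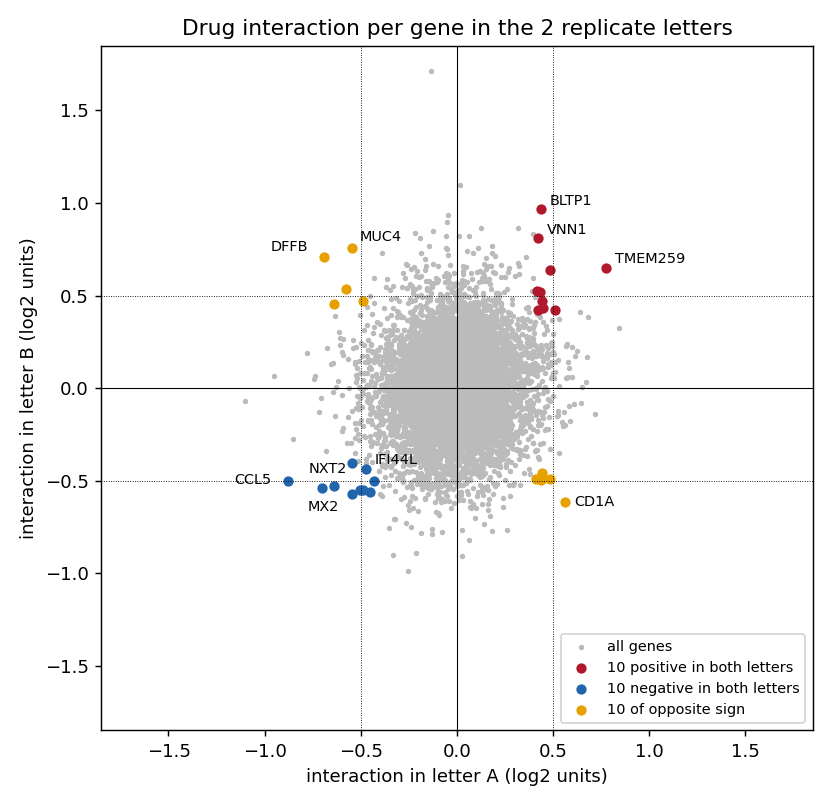
Interaction of each of 8549 genes in letter A (horizontal) and letter B (vertical), in log2 units, with dotted lines at -0.5 and 0.5. The cloud is nearly round (r = 0.0907), and the corners that both letters reach hold 5 genes of the same sign and 4 of opposite sign.

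At least 0.5 from 0 in both letters were 5 genes of the same sign. TMEM259 was positive (0.0117% of genes), and ZNF239, MX2, NXT2 and CKM were negative (0.0468%). As many as 4 genes (0.0468%) were that far from 0 with opposite signs: CD1A, DFFB, MUC4 and H2BC9. At 0.3 the numbers were 50 positive (0.585%), 63 negative (0.737%) and 69 opposite (0.807%), and at 1 all 3 were 0. The genes just inside 0.5 were MX2, NXT2 and CKM, whose smaller value was 0.54, 0.53 and 0.50 in size. Those just outside were CCL5, KLHL1 and MAP1B, with 0.49995, 0.49 and 0.48.

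Among the 10 genes most negative in both letters were MX2 and IFI44L of the interferon list and CCL5 of the NF-kappaB list. MX2 is an interferon-induced GTPase that restricts viruses. In letter A it stood at 5.52 log2 units in the combination, 6.73 with cisplatin, 5.97 with nimesulide and 6.49 in control. In letter B it stood at 6.10 in the combination, 7.27 with cisplatin, 6.58 with nimesulide and 7.21 in control. The combination array was lowest and the cisplatin array highest in each letter, and nimesulide lay below control in both. Its interaction was -0.70 in letter A and -0.54 in letter B (mean -0.62, SE 0.41, 95% interval -1.55 to 0.31). That error includes the difference between the letters. With the letter as a block the SE was 0.12 and the limma adjusted p 0.892. The mean was -0.26 without control A and -0.98 without control B, in fits with no term for the letter. Such a fit also takes in the difference between the letters in the treatment that lost an array.

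CCL5, a chemokine that attracts T cells, had 4.84 log2 units in the combination, 5.49 with cisplatin, 5.27 with nimesulide and 5.05 in control of letter A. In letter B it had 5.21 in the combination, 6.03 with cisplatin, 5.58 with nimesulide and 5.90 in control. The combination was again lowest and cisplatin highest in both letters, but nimesulide lay above control in letter A and below it in letter B. The interaction was -0.88 and -0.50 (mean -0.69, SE 0.38, or 0.17 with the letter as a block), and a second probe set of CCL5 gave -0.31 and -0.08. The mean was -0.26 without control A and -1.11 without control B, again with the difference between the letters in it.

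IFI44L, an interferon-induced protein, stood in letter A at 5.00 log2 units in the combination, 6.27 with cisplatin, 5.25 with nimesulide and 6.05 in control. In letter B it stood at 5.01 in the combination, 7.31 with cisplatin, 5.63 with nimesulide and 7.48 in control. The combination arrays were nearly equal although the control and cisplatin arrays differed by more than 1 unit between the letters. Its interaction was -0.47 in letter A and -0.44 in letter B (mean -0.46, SE 0.60). It turned to 0.26 when control A was left out and to 0.06 when cisplatin B was left out. Both of these fits took in that difference between the letters, which the within-letter values do not hold.

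The other 7 of these 10 genes belong to none of the lists. ZNF239, a zinc finger protein, had 3.90 log2 units in the combination, 4.28 with cisplatin, 4.20 with nimesulide and 4.04 in control of letter A. In letter B it had 3.84 in the combination, 4.29 with cisplatin, 4.08 with nimesulide and 3.96 in control. Both single agents lay above control and the combination below it, in each letter. The interaction was -0.55 and -0.57 (mean -0.56, SE 0.12), at a level that ranks in the 17.8th percentile of genes. NXT2, a nuclear export factor, likewise had both single agents above control and the combination below it. It stood at 6.57 in the combination, 6.80 with cisplatin, 7.11 with nimesulide and 6.69 in control of letter A, and at 6.82, 7.09, 7.18 and 6.92 in the same order in letter B. Its interaction was -0.64 and -0.53 (mean -0.58, SE 0.18), but its second probe set gave 0.08 and 0.02.

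In 5 of the 10 genes, ZNF239, NXT2, CKM, KLHL1 and CCT6B, nimesulide stood above control without cisplatin, and the combination below cisplatin, in both letters. In 2 of them, MX2 and IFI44L, nimesulide was the lower one on both backgrounds and in both letters. CKM, the muscle creatine kinase, had a mean interaction of -0.53, and KLHL1, a kelch family protein, one of -0.52. The interleukin-9 receptor IL9R stood at -0.51, and the endoplasmic reticulum protein CKAP4 and the chaperonin subunit CCT6B both at -0.47. CKAP4 was -0.22 without nimesulide B and -0.24 without combination A. Across the 10 genes the combination was the lowest array in 9 for letter A and in 7 for letter B. Over all 16383 probe sets it was lowest in 5222 for letter A and in 4343 for letter B. Choosing genes by a negative interaction favours a low combination array and a nimesulide difference that turns downward with cisplatin. Nothing is therefore read from these counts. The mean level of 5 of the 10 lay below the median of all genes.

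**Figure D3:**
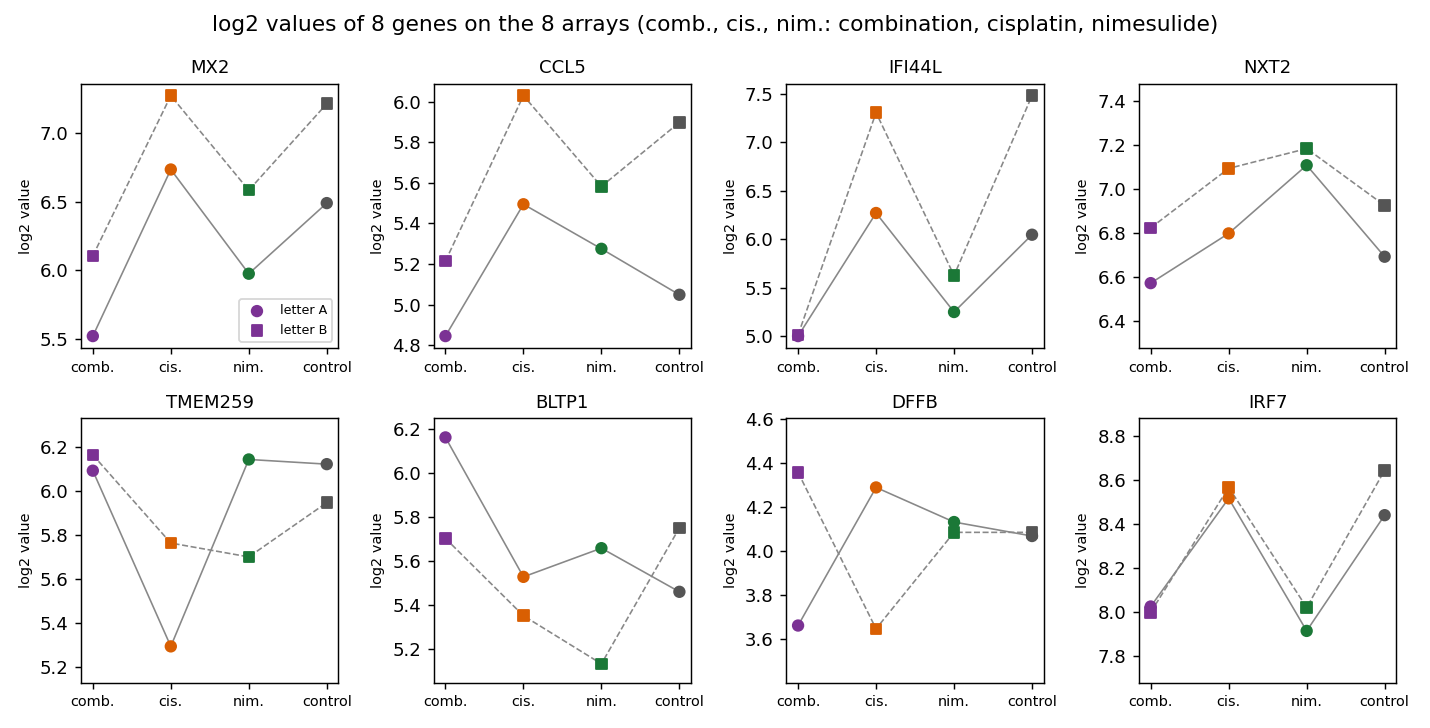
Log2 values of 8 genes on the 8 arrays (circles, letter A; squares, letter B), ordered combination, cisplatin, nimesulide and control, with a separate vertical scale per gene. In MX2 and IFI44L the combination is lowest in both letters, TMEM259 is low with cisplatin in letter A, DFFB changes its order between the letters, and in IRF7 the combination lies close to nimesulide.

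The 10 genes most positive in both letters were often lowest on the cisplatin arrays, which enter the interaction with a minus sign. TMEM259, a membrane protein of the endoplasmic reticulum, stood at 6.09 log2 units in the combination, 5.29 with cisplatin, 6.14 with nimesulide and 6.12 in control of letter A. In letter B it stood at 6.16 in the combination, 5.76 with cisplatin, 5.70 with nimesulide and 5.95 in control. In letter A the cisplatin array alone was low, and in letter B both single agents lay below the combination and control. The interaction was 0.78 and 0.65 (mean 0.71, SE 0.24). Of its other probe sets, 1 had 1.03 and 0.97, while the remaining 2 had 0.03 and 0.25 in letter A and 0.07 and -0.31 in letter B.

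BLTP1, a lipid transfer protein, had 6.16 log2 units in the combination, 5.53 with cisplatin, 5.66 with nimesulide and 5.46 in control of letter A. In letter B it had 5.70 in the combination, 5.35 with cisplatin, 5.13 with nimesulide and 5.75 in control. The combination was the highest array of letter A, and in letter B it lay just below control. The interaction was 0.43 and 0.97 (mean 0.70, SE 0.27). MAP1B, which binds microtubules, had the combination highest in both letters, at 7.05 and 6.75, against 6.54 and 6.04 with cisplatin, 6.49 and 6.52 with nimesulide and 6.47 and 6.45 in control (interaction 0.48 and 0.64, SE of the mean 0.22).

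The remaining 7 genes had mean interactions between 0.42 and 0.62. They were the deubiquitinating enzyme BRCC3, the transcription factors TCF15 and PKNOX1, the coenzyme Q synthesis protein COQ7, the secreted integrin ligand EDIL3, the polyadenylation factor CPSF1 and the pantetheinase VNN1. Across all 10 the cisplatin array was the lowest of its letter in 7 genes for letter A and in 7 for letter B. Choosing genes by a positive interaction favours such counts. Some of these mean interactions moved when 1 array was left out, in fits with no term for the letter. VNN1 was 0.24 without control B and 0.99 without control A, and EDIL3 was 0.20 without cisplatin A and 0.73 without cisplatin B. MAP1B was 0.31 without cisplatin B, BRCC3 0.28 without combination B, BLTP1 0.44 without nimesulide B and TCF15 0.24 without combination A. For genes with several probe sets the choice of probe set mattered. The median over a gene's probe sets was 0.37 for TMEM259, 0.12 for BLTP1, 0.15 for COQ7 and -0.07 for PKNOX1.

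Among single probe sets, 17 (0.104%) were at least 0.5 in both letters and 5 (0.0305%) at most -0.5. Of these 5, 1 read GBP1 of the interferon list, with -0.55 and -1.01 at a mean level of 3.75. The highest GBP1 probe set, by which the list counts it as opposite in sign, gave 0.14 and -0.73. All 17 positive ones were of the classes that Affymetrix marks as able to match several transcripts, which make up 49.3% of all probe sets, against 1 of the 5 negative ones. A further 7 (0.0427%) had opposite signs. In letter A the cisplatin array was the lowest of its letter in 17 of 17. In letter B the cisplatin array was lowest in 9 and the nimesulide array in 8. A high interaction favours low single-agent arrays by its definition. Letter C, which the interaction did not use, had cisplatin below control in 8 of the 17 (median difference 0.00). Letter A had it below control in 17 (median -0.63) and letter B in 16 (median -0.24). Nimesulide lay below control in 12 of the 17 in letter C (median -0.14), 9 in letter A (median -0.02) and 17 in letter B (median -0.40). Over all 16383 probe sets, cisplatin lay below control in 8627 and nimesulide in 8617 for letter C. The part of single arrays in these values was not tested beyond that.

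These probe sets named 13 genes, of which 1 was read by its highest probe set. They included the receptors ERBB2 and MET, the desaturase SCD, the phosphatase PTPN12, the splicing factor TRA2B, the polyadenylation factor CPSF6 and the cohesin subunit SMC3. The MET probe set had 6.96 log2 units in the combination, 4.98 with cisplatin, 6.64 with nimesulide and 6.42 in control of letter A, for an interaction of 1.76. In letter B it had 6.79, 6.61, 6.66 and 7.11 in that order, for 0.62. The highest MET probe set gave -0.18 and 0.01. ERBB2 likewise had 0.71 and 0.86 by a dim probe set, against -0.15 and 0.01 by its highest one. For the 15 probe sets whose gene had others, the median of those others was 0.06 in letter A and 0.11 in letter B.

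**Figure D4:**
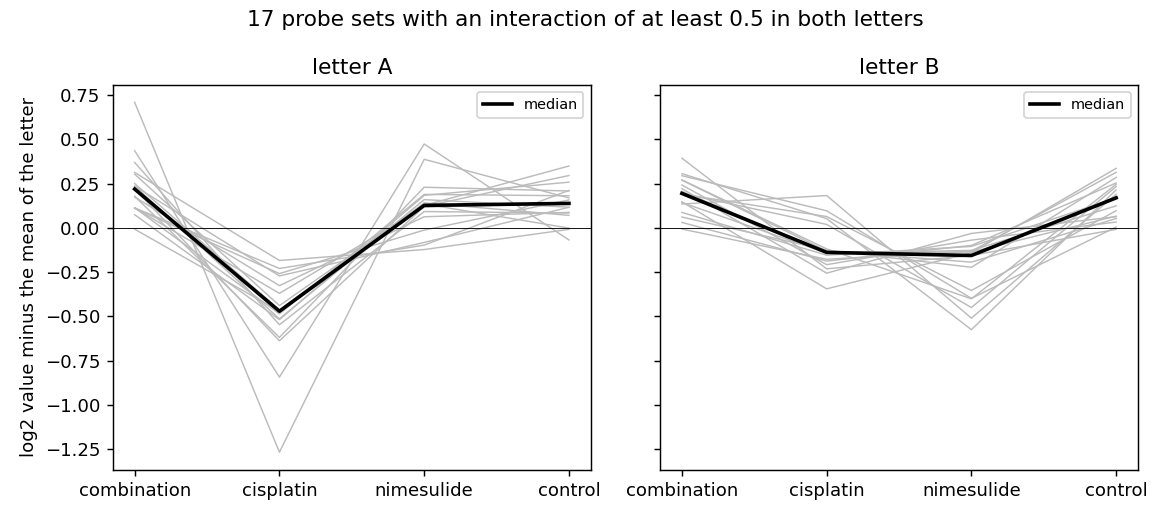
Log2 value minus the mean of the letter's 4 arrays for the 17 probe sets with an interaction of at least 0.5 in both letters (grey lines; black, their median), ordered combination, cisplatin, nimesulide and control. In letter A the cisplatin array is lowest in all 17, and in letter B the medians of the cisplatin and nimesulide arrays lie below those of the other 2.

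At 0.3 the array counts again follow from the sign with which each array enters the interaction, and nothing is read from them. Of 189 positive probe sets (1.15%), the cisplatin array was the lowest of letter A in 149, and in letter B the cisplatin array was lowest in 104 and the nimesulide array in 82. Over all 16383 probe sets the cisplatin array was lowest in 4476 for letter A and in 5524 for letter B. Opposite signs were found in 160 (0.977%). Of 118 negative probe sets (0.72%), the combination array was lowest in 99 for letter A and in 70 for letter B. Cisplatin lay below control in 180 of the 189 for letter A, 177 for letter B and 105 for letter C, against 8524, 9275 and 8627 of all 16383. Nimesulide lay below control in 125, 170 and 105 of the 189 in the same order, against 8365, 7069 and 8617 of all. Over genes with several probe sets, the interaction of the highest and the second probe set correlated at 0.0370 in letter A and 0.288 in letter B (3362 genes). Of the 20 positive genes at 0.3 that had a second probe set, it was positive in both letters for 8, where 30.9% of all second probe sets were. Of the 20 negative genes, 9 had it negative in both, where 23.1% of all were.

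Genes that disagreed between the letters had their arrays in another order in each. DFFB, the nuclease that cuts DNA in apoptosis, stood at 3.66 log2 units in the combination, 4.29 with cisplatin, 4.13 with nimesulide and 4.07 in control of letter A. In letter B it stood at 4.36 in the combination, 3.65 with cisplatin, 4.08 with nimesulide and 4.08 in control. The combination was the lowest array in letter A and the highest in letter B, cisplatin the reverse, and the other 2 hardly moved. The interaction was -0.69 and 0.71 (mean 0.01, SE 0.32).

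MUC4, a membrane mucin, had 5.05 log2 units in the combination, 5.49 with cisplatin, 5.19 with nimesulide and 5.08 in control of letter A, and 5.15, 4.78, 4.60 and 5.00 in that order in letter B. Cisplatin was the highest array in letter A, and both single agents were the lowest in letter B. Its interaction was -0.54 and 0.76. The histone H2BC9 had -0.58 and 0.53, the polyamine enzyme SAT1 -0.64 and 0.46, and the thymus protease PRSS16 -0.49 and 0.47. In the opposite direction were the lipid antigen receptor CD1A at 0.56 and -0.62, FAM30A at 0.49 and -0.49, the ephrin receptor EPHB1 at 0.44 and -0.49, the calpain CAPN5 at 0.44 and -0.46 and the sialyltransferase ST3GAL2 at 0.41 and -0.49. All 10 lay below the median level of genes.

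Interferon-stimulated genes, which carry antiviral defence, were lower with nimesulide on both backgrounds, and the interaction asks whether cisplatin altered that difference. The combination lay below cisplatin in 33 of 35 measured members in letter A and in 34 in letter B, by a median of -0.44 and -0.63. Nimesulide lay below control in 34 members in letter A and in 35 in letter B, by a median of -0.29 and -0.54. Of all 8549 genes, the combination lay below cisplatin in 4544 in letter A and in 3622 in letter B. Nimesulide lay below control in 4528 and 3666 of them. The mean level of the list was 7.38 in the combination, 7.80 with cisplatin, 7.39 with nimesulide and 7.71 in control of letter A, and 7.53, 8.21, 7.68 and 8.24 in that order in letter B. The interaction was negative in both letters for 19 members (54.3%), where 26.9% of all genes were, positive in both for 5 and of opposite sign for 11. Its median was -0.05 in letter A and -0.07 in letter B, beside -0.01 and 0.01 over all genes.

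This median was small beside the change when a control array was left out. The median of the mean interaction was -0.30 without control B and 0.15 without control A. Those fits had no term for the letter, and the mean control level of the list was 7.71 in letter A and 8.24 in letter B. They thus took in that difference between the letters, which cancels in the interaction within a letter. Of the members, 0 passed the test, and 0 had an unadjusted p under 0.05 in the limma fit with no term for the letter. The error of that fit includes the difference between the letters, so this count holds for that fit only. For MX2 its SE was 0.41, against 0.12 with the letter as a block. MX2 and IFI44L were followed by PSMB9, an immunoproteasome subunit, at -0.39 and -0.42, and MX1, a GTPase against viruses, at -0.05 and -0.59. IRF7, a transcription factor that drives interferon production, had 8.03 in the combination, 8.52 with cisplatin, 7.91 with nimesulide and 8.44 in control of letter A, and 7.999, 8.57, 8.02 and 8.64 in that order in letter B. Its arrays formed 2 levels, combination with nimesulide and cisplatin with control, and its interaction was 0.03 and 0.06 (mean 0.04, 95% interval -0.25 to 0.34). ISG15, a ubiquitin-like antiviral protein, had a mean of -0.04 (95% interval -0.51 to 0.42).

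The ATF4 and amino acid response list, which holds genes that scarce amino acids induce, leaned to the positive side. Positive in both letters were 14 of 23 measured members (60.9%), where 26.6% of all genes were, with 5 negative in both and 4 opposite. The median was 0.08 in letter A and 0.06 in letter B, and the median of the mean interaction lay between 0.03 and 0.18 without 1 array. With quantile normalisation the letter B median was -0.02. In each letter 21 of the 23 members were higher in the combination than with cisplatin (median difference 0.29 in letter A and 0.26 in letter B). Without cisplatin the direction was the same. Nimesulide lay below control in only 5 members in letter A and 1 in letter B (median difference 0.14 and 0.15). Of all 8549 genes, 4528 and 3666 had nimesulide below control in letters A and B. The combination lay below cisplatin in 4544 and 3622 of all genes, so letter B leaned to a higher combination in general. ASNS, asparagine synthetase, stood at 9.82 in the combination, 9.30 with cisplatin, 9.50 with nimesulide and 9.25 in control of letter A, and at 9.63, 8.9997, 9.46 and 9.08 in that order in letter B. The combination was its highest array in both letters (interaction 0.28 and 0.24, mean 0.26, SE 0.17). PCK2, the mitochondrial enzyme that makes phosphoenolpyruvate, had 0.27 and 0.39.

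Members of this list also went the other way. PSPH, which completes serine synthesis, had -0.60 and -0.23, and it stood at 7.06 in the combination, 7.09 with cisplatin, 7.31 with nimesulide and 6.74 in control of letter A. In letter B these were 7.10, 6.89, 6.96 and 6.51. Control was its lowest array in both letters, and the combination lay below nimesulide in letter A and above it in letter B. The stress factor DDIT3 had 0.58 in letter A, where the combination array was at 7.28 and the other 3 between 6.74 and 6.88, and 0.06 in letter B. The cystine transporter SLC7A11 had 0.02 in letter A and 0.40 in letter B, and the hormone STC2 had -0.19 and -0.15.

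The cytosolic tRNA synthetases charge transfer RNAs and include ATF4 targets. Of 15 members 8 (53.3%) were positive in both letters and 1 (6.67%) negative in both, where 26.6% and 26.9% of all genes were. The list medians of 0.17 and 0.13 were the highest of the 23 pathway lists in the mean of the letters. The mean level was 9.23 in the combination, 9.13 with cisplatin, 9.10 with nimesulide and 9.09 in control of letter A, and 9.13, 8.96, 9.11 and 9.06 in that order in letter B. This mean was highest in the combination in each letter, with nimesulide close to it in letter B. By member, the combination lay below nimesulide in 3 of 15 in letter A and 8 in letter B, against 4410 and 4751 of all 8549 genes. Cisplatin lay below control in 5 members in letter A and 12 in letter B, against 4223 and 4902 of all genes. With single arrays left out the median stayed between 0.05 and 0.21. Members with the largest mean were VARS1 at 0.25, AARS1 and IARS1 at 0.24 and FARSA at 0.19. In the limma fit with no term for the letter, 0 members had an unadjusted p under 0.05.

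NF-kappaB targets and cytokines, the inflammatory group that CCL5 belongs to, had 14 of 26 members negative in both letters (53.8%), where 26.9% of all genes were. The interaction was positive in both for 1 member and of opposite sign for 11. The medians were -0.09 in letter A and -0.28 in letter B. The mean level in letter A was 5.47 in the combination, 5.58 with cisplatin, 5.49 with nimesulide and 5.46 in control. In letter B it was 5.56 in the combination, 5.83 with cisplatin, 5.82 with nimesulide and 5.86 in control. In letter B the combination thus stood below the other 3 arrays, and in letter A it did not. IL6 had -0.13 and -0.76, the neutrophil chemokine CXCL8 -0.18 and -0.50, and the iron-binding protein LCN2 -0.28 and -0.40. Without control A the median of the mean interaction was 0.03, and without control B -0.32. Those fits likewise took in the difference between the control arrays of the letters, at 5.46 and 5.86.

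The prostaglandin and leukotriene pathway, to which nimesulide's own target belongs, was mostly dim, with a median level of 4.86. Of 30 members 12 (40.0%) were negative in both letters, 5 (16.7%) positive in both and 13 (43.3%) opposite, with medians of -0.12 and -0.11. Over all genes the shares were 26.9%, 26.6% and 46.5%. The cyclooxygenases PTGS1 and PTGS2 had means of -0.07 (95% interval -0.40 to 0.26) and 0.14 (95% interval -0.24 to 0.51). PTGS2 was dim, at a mean level of 3.27 in the lowest of the 4 level groups, and PTGS1 had 5.19. PTGES, a synthase of prostaglandin E2, had -0.24 and 0.24, and PTGER4, a receptor of that prostaglandin, -0.35 and -0.09. The member farthest from 0 was the carbonyl reductase CBR1, which can reduce prostaglandin E2. It stood at 6.66 in the combination, 6.45 with cisplatin, 6.36 with nimesulide and 6.51 in control of letter A, and at 6.77, 6.44, 6.32 and 6.70 in that order in letter B. Both single agents lay below control and the combination above it in each letter, for an interaction of 0.36 and 0.71 (mean 0.54, SE 0.13, limma adjusted p = 0.981).

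**Figure D5:**
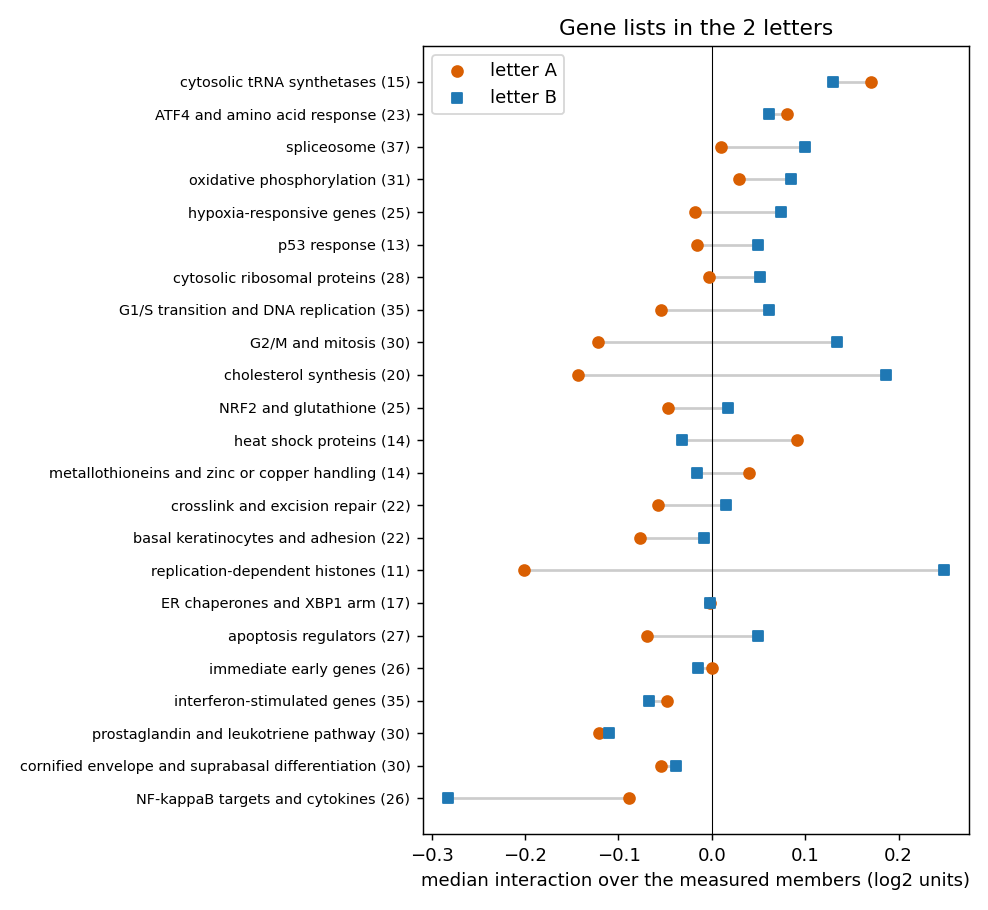
Median interaction over the measured members of 23 gene lists (number of members in brackets) in letter A (circles) and letter B (squares), in log2 units, ordered by the median of the mean interaction. The tRNA synthetases lie at 0.17 and 0.13, while the histones (-0.20 and 0.25) and cholesterol synthesis (-0.14 and 0.19) have opposite medians in the letters.

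DNA damage genes, the group nearest to cisplatin's action, showed no common sign. Of 13 p53 response genes 3 (23.1%) were positive in both letters, 3 (23.1%) negative in both and 7 (53.8%) opposite, with medians of -0.02 and 0.05. These shares lay near the 26.6%, 26.9% and 46.5% of all genes. The cell cycle inhibitor CDKN1A lay between 8.13 and 8.27 on all 8 arrays, with a mean interaction of -0.03 (95% interval -0.30 to 0.24). The p53 regulator MDM2 had a mean of 0.01 (95% interval -0.23 to 0.26), and GADD45A had 0.07 and -0.30. The damage sensor DDB2 had 0.18 and 0.54, and the death receptor TNFRSF10B -0.39 and -0.18. Of 22 crosslink and excision repair genes 5 (22.7%) were positive in both, 7 (31.8%) negative in both and 10 (45.5%) opposite, again near the shares of all genes. ERCC1, a subunit of a nuclease that cuts at crosslinks, had 0.22 and 0.13, its partner ERCC4 -0.42 and -0.15, and the crosslink repair protein FANCI 0.32 and 0.24.

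Some lists had opposite medians in the letters. Of the 20 cholesterol synthesis genes 4 were positive in letter A and 19 in letter B, so that 15 (75.0%) had opposite signs, where 46.5% of all genes had. Their mean level was 8.06 in the combination, 8.19 with cisplatin, 8.12 with nimesulide and 8.11 in control of letter A, and 8.03, 7.95, 7.76 and 7.91 in that order in letter B. The lowest array was the combination in letter A and nimesulide in letter B. INSIG1, a sterol sensor, had -0.10 and 0.48, and the synthase HMGCS1, positive in both, 0.23 and 0.46. The desaturase SCD counted as opposite by its highest probe set, at -0.24 and 0.56. Its other probe sets were positive in both letters, at 0.19 and 0.53, 0.67 and 1.04, and 0.69 and 0.60.

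Mitotic genes had 19 of 30 members with opposite signs (63.3%, beside 46.5% of all genes) and medians of -0.12 and 0.13. Their mean level was 8.28 in the combination, 8.38 with cisplatin, 8.30 with nimesulide and 8.29 in control of letter A, and 8.57, 8.45, 8.32 and 8.32 in that order in letter B. The cisplatin array stood highest in letter A and the combination in letter B. The proliferation marker MKI67 had -0.04 and 0.43, and the kinesin CENPE 0.08 and 0.53. Replication-dependent histones had 9 of 11 members opposite (81.8%) and medians of -0.20 and 0.25, with H2AC6 at -0.26 and 0.54. Of 35 genes of G1/S and DNA replication 17 (48.6%) were opposite, near the share of all genes. The flap endonuclease FEN1 had -0.51 and -0.08 and the replication factor GINS4 had 0.36 and 0.37.

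Spliceosome, respiratory chain and ribosomal genes were more often positive in letter B than in letter A. This was not particular to them. G1/S and DNA replication genes were so too (24 and 15 of 35 in letters B and A), while heat shock proteins went the other way (5 and 8 of 14). The median over all genes was -0.01 in letter A and 0.01 in letter B. Positive were 31 and 21 of 37 spliceosome genes, 25 and 17 of 31 oxidative phosphorylation genes and 19 and 14 of 28 ribosomal protein genes in letters B and A. Over all genes 26.6% were positive in both letters and 26.9% negative in both. Of the 37 spliceosome genes 20 (54.1%) were positive in both letters and 5 (13.5%) negative in both, with medians of 0.01 and 0.10. Of the 31 oxidative phosphorylation genes 14 (45.2%) were positive in both and 3 (9.68%) negative in both, with medians of 0.03 and 0.09. UQCRC1, of respiratory complex III, had 0.20 and 0.39, and COX5B, of cytochrome oxidase, 0.25 and 0.25. The spliceosome median was -0.00 without cisplatin B, and the oxidative phosphorylation median -0.01 without nimesulide A. Ribosomal protein genes had 11 of 28 (39.3%) positive in both, 6 (21.4%) negative in both and medians of -0.00 and 0.05.

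Genes of drug transport and differentiation had values on either side of 0. The copper transporters SLC31A1 and ATP7A, which also carry cisplatin, had means of 0.08 (95% interval -0.21 to 0.37) and -0.01 (95% interval -0.34 to 0.31). The metallothionein MT1X had a mean of -0.02 (95% interval -0.50 to 0.47), the zinc exporter SLC30A1 0.19 and 0.62, and the angiogenic factor VEGFA 0.28 and -0.03. SPRR1B, a cornified envelope protein, stood at 6.54 in the combination, 5.71 with cisplatin, 6.25 with nimesulide and 5.48 in control of letter A. In letter B it stood at 6.19 in the combination, 6.06 with cisplatin, 6.86 with nimesulide and 5.91 in control. Control was lowest in both letters, and the highest array was the combination in letter A and nimesulide in letter B (interaction 0.06 and -0.82). EGFR, the growth factor receptor abundant in these cells, had 0.57 and 0.24.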

How the data were processed

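Total RNA of SCC9 cells was measured on Affymetrix arrays, 1 per sample. The authors used RMA, per the submitters' processing notes. The deposited table was taken as log2 intensity, since it spans 2.54 to 13.4 with medians of 5.37 to 5.43 per array. The RMA version and the arrays normalised together are not given in the sources used here. Because RMA equalises the distributions of arrays, it would hide a change common to all transcripts. No further normalisation was applied.

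Of 16383 probe sets 14045 had 1 gene symbol, 792 several and 1546 none in the platform annotation. A gene was read by its highest probe set over the 8 arrays (8549 genes). The interaction was fitted over all probe sets with limma 3.58.1 in R 4.3.3, with a mean per treatment and 4 residual degrees of freedom, two-sided, with Benjamini-Hochberg adjustment, after a check on simulated data. The number of arrays, 2 per treatment, limits the precision. Agreement between letters A and B was described without a test. Named genes were the 10 positive and 10 negative genes of the same sign with the largest smaller value of the 2 letters, 5 genes of opposite sign in each direction, up to 4 members per list with the largest mean interaction, and a fixed set of drug pathway genes. The 27 lists (4 of them markers), members and thresholds were chosen with earlier results of these data known. Promoter sequences came from RefSeq. Alternatives were a replicate block, all 11 arrays, other normalisations, filters and thresholds, and leaving out each array. The fits without an array had no term for the letter.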

Additional observations from a re-analysis of the deposited data

How the results depend on the processing

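The count of 0 called probe sets was the same under 9 other settings of limma and when each of the 8 arrays was left out. Unadjusted p-values under 0.05 numbered 277 to 1242 under those settings and 351 to 960 without an array, and the lowest adjusted p was 0.0547, for a TMEM259 probe set when the within-letter values were tested against 0. Arrays of the same letter correlated at 0.119 to 0.383 after removal of treatment means (6 pairs of treatments). The labels state no pairing, and 2 letters are too few to settle one. With the letter as a replicate block 0 probe sets were called and 867 had an unadjusted p under 0.05.

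Among genes above the median level the letters correlated at 0.163. Genes agreeing at 0.5 numbered 3 there, and 113 agreed at a threshold of 0.3 and 0 at 1. Genes disagreeing numbered 0, 69 and 0 under the same settings. Counted as probe sets rather than genes, 22 of 16383 agreed at 0.5 and 7 disagreed. The change of threshold sets the numbers at 0.3 and 1 by its construction, and the cause of the others was not tested. Genes near 0 changed sign: with all 11 arrays PTGS1 had 0.027, PTGES -0.028, ISG15 0.0117, SLC31A1 -0.00876 and ATP7A 0.0104. With all 11 arrays and the block PTGS1 had 0.0558, ISG15 0.00942, MT1X 0.0183 and ATP7A 0.00246, and with quantile normalisation PTGES had -0.0486 and MT1X 0.00839. Leaving out arrays or a letter moved IFI44L between -1.17 and 0.26, while the other 19 genes chosen for the same sign in both letters kept it, which that choice favours and, for a left-out letter, fixes. The fits without 1 array had no term for the letter, so their estimates also hold the difference between the letters in that treatment. The leave-one-array settings of single genes and all alternatives for lists were chosen after seeing the data. With 1 array per treatment and letter there is no spread within a letter, and with 95% intervals of a median 0.31 to either side, most interactions below that size could not be told from 0.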
